A study of Mus musculus with 22 samples.

Results

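The SLC25 carriers are a family of transporters, most of them of the mitochondrial inner membrane, and their genes were read here in germinal center B cells of the mouse spleen. The members are all symbols of the deposited gene table that begin with Slc25a, which gave 42 of its 14407 genes. As background, the carriers are membrane proteins built from repeated pairs of helices, and most move a small molecule, or swap a pair of them, across the inner membrane. The family brings ADP and phosphate to ATP synthase and exports ATP, exchanges citrate, dicarboxylates and amino acids with the cytosol, and supplies the matrix with nucleotides, cofactors, iron and glutathione. Germinal centers are the sites in which B cells mutate their antibody genes, divide, and compete for help from T cells. Division is mostly seen in the dark zone, and Cd83, a surface protein of activated B cells, marks the light zone. Myc, a transcription factor that drives growth, is switched on in light zone cells that receive help.

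Cells came from the spleens of male C57BL/6 mice aged 8 weeks per the sample labels, immunized in the peritoneum with the hapten conjugate NP(23)-KLH or with ovalbumin (OVA), both in alum with LPS. Libraries NP 1 and NP 2 hold B220+ Fas-high GL-7-high cells that bound NP and were sorted on day 13. Library OVA 1 holds all cells of the B220+ Fas-high GL-7-high gate of OVA-immunized mice, with a day of sorting that is not given in the sources used here. Antigen and antigen-binding gate therefore change together between the groups, and with 1 OVA library neither they nor the library itself can be told apart. Whether the libraries came from separate animals, and how many animals each pooled, is not stated, so the spread between them may be partly technical.

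Levels are given as CPM, the UMIs of a gene per 1000000 UMIs outside immunoglobulin genes, where a UMI (unique molecular identifier) marks a captured transcript molecule. The 5′ kit reads an end of each molecule, so these levels do not scale with gene length and may be set side by side between genes, apart from differences in capture. Cells with 500 or more genes detected and no more than 10% of UMIs from mitochondrial genes were used, and each was thinned at random to 2500 UMIs so that deep and shallow cells weigh alike. This left 2338, 1602 and 2154 cells of NP 1, NP 2 and OVA 1, in which order all triplets of values below are given, after 262, 154 and 231 cells with fewer UMIs were left out. The deposited table held 20533741, 16161435 and 21412501 UMIs, and the kept cells had median depths of 6373, 8685.5 and 8052.5 UMIs. NP 1 and NP 2 shared 11 cell barcodes, NP 1 and OVA 1 shared 11, and NP 2 and OVA 1 shared 9.

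Cell states were called in the thinned cells. Mitotic cells held at least 6 UMIs summed over 20 mitotic genes (424, 296 and 337 cells). Mcm5-positive cells held at least 1 UMI of Mcm5, a subunit of the replicative helicase, and were not mitotic (696, 428 and 508 cells). Cd83-high noncycling cells held at least 2 Cd83 UMIs, no Mcm5 UMI and at most 1 UMI of the mitotic genes (333, 208 and 293 cells). The 885, 670 and 1016 remaining cells are called other. Each state is a range cut from counts and not a cell type: 69, 47 and 41 mitotic cells sat on the threshold itself, and 51, 30 and 27 Mcm5-positive cells were 1 UMI below it. A UMI of free RNA in the droplet cannot be told from one of the cell itself.

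All 4 B cell markers had UMIs in every state, as had all 7 germinal center markers, which summed to 1721 to 2206 CPM. Several measures moved with the states, and their part in the results below was not tested. Before thinning, mitotic cells had median depths of 7921.5, 11465.5 and 11381 UMIs against 4917, 6718 and 6401 in Cd83-high noncycling cells. The B cell markers summed to 5098 to 5491 CPM in mitotic cells, 5768 to 6784 in Mcm5-positive cells and 8204 to 8327 in Cd83-high noncycling cells. The 4 plasma cell markers, 3 of them with UMIs in each of these states, summed to 775 to 1199, 666 to 1047 and 482 to 686 in the same order. Most of this was Jchain, at 892, 1115 and 683 CPM in mitotic and 494, 612 and 370 in Cd83-high noncycling cells. Xbp1 had 78.2, 79.3 and 91.4 against 102.2, 74.1 and 103.9, lower in mitotic cells of NP 1 and OVA 1 and higher in NP 2. Sdc1 and Prdm1 were at or near 0. Mitochondrial genes held 5.29%, 3.96% and 3.28% of UMIs in mitotic cells and 6.02%, 4.82% and 3.53% in Cd83-high noncycling cells. Thinned levels are shares of a cell's RNA and not amounts per cell. The 5 markers of memory or naive B cells, all with UMIs in each state, summed to 494 to 672 CPM in Cd83-high noncycling cells, 118 to 262 in Mcm5-positive cells and 81.0 to 157 in mitotic cells. The 7 myeloid markers, all with UMIs in mitotic cells, summed there to 0, 1713 and 2879 CPM, against 0.581, 69.1 and 31.09 in Mcm5-positive cells and 0, 1.95 and 31.9 in Cd83-high noncycling cells, where Ltf was at 0. T cell markers summed to 0 to 30.5 CPM in those 3 states, with Cd3e, Cd3g and Cd8a at 0 in mitotic cells. Erythroid markers summed to 19.5 to 94.9, with Hba-a1 and Hba-a2 at 0 in mitotic and in Cd83-high noncycling cells. Without the 130 cells that held at least 3 UMIs of the T cell, myeloid and erythroid markers, the 7, 5 and 3 member calls of the 3 state comparisons below all remained.

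Of the 42 members, 21 reached 10 CPM in each library and are called expressed here, and none was without UMIs in all 3. The family held 31677 UMIs of the thinned cells, and its summed level was 1980, 2078 and 2261 CPM. A few genes carried most of it: the 4 most abundant members held 70.3% of these UMIs and the first 12 held 87.6%.

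**Figure D1:**
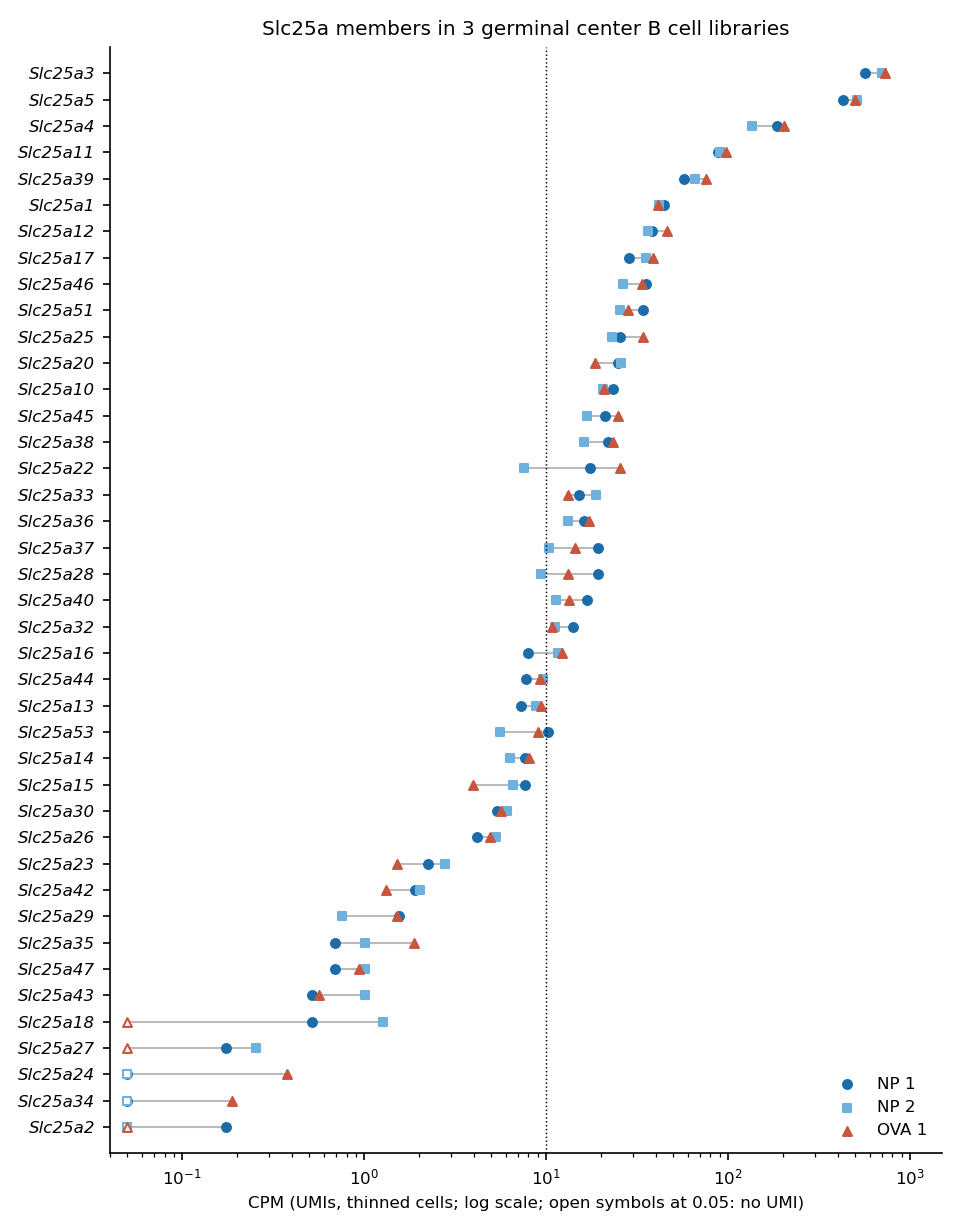
Levels of 41 members in CPM (horizontal log axis) in NP 1 (circles), NP 2 (squares) and OVA 1 (triangles), ordered by mean, with a dotted line at the 10 CPM used to call a member expressed. Slc25a3 and Slc25a5 stand at the top in all 3 libraries, and open symbols mark libraries with no UMI of a gene.

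Slc25a3, the phosphate carrier, was the most abundant member at 569, 703 and 733 CPM. Slc25a5, the ADP/ATP carrier of dividing tissues, followed at 426, 512 and 497, and its paralog Slc25a4, the ADP/ATP carrier best known from heart and muscle, stood at 185, 135 and 204. The ranges of these 3 genes over the libraries did not overlap. Slc25a11, the oxoglutarate and malate carrier, had 87.7, 90.8 and 97.9. Slc25a39, a carrier required for mitochondrial glutathione import, had 57.1, 66.2 and 75.3, and Slc25a1, which exports citrate, had 44.3, 41.7 and 41.03. Slc25a11, Slc25a39 and Slc25a1 kept this order without overlap of their ranges. From Slc25a1 downwards each expressed member overlapped the next in order.

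Also among the first 12 were Slc25a12, an aspartate and glutamate carrier of the malate-aspartate shuttle, at 40.3 ± 5.16 (SD, n = 3) CPM, Slc25a17, a carrier of the peroxisomal membrane, at 34.2 ± 5.21 (SD, n = 3), Slc25a46, an outer membrane protein of mitochondrial dynamics, at 31.8 ± 4.62 (SD, n = 3), Slc25a51, the NAD carrier, at 29.2 ± 4.39 (SD, n = 3), and Slc25a25, a calcium-regulated carrier of ATP-Mg and phosphate, at 27.6 ± 5.89 (SD, n = 3). The means of the other 9 expressed members ran from 11.96 CPM for Slc25a32, a folate carrier, to 23.1 for Slc25a20, which brings acylcarnitines in for fatty acid oxidation. Among the 21 members that were not expressed by this rule, Slc25a22, Slc25a28 and Slc25a16 had means above 10 CPM and fell short in 1 library. A further 11 had means between 1 and 10, and 7 had means under 1. Slc25a27 and Slc25a24 had 2 UMIs each in all kept cells and Slc25a34 and Slc25a2 had 1 each, numbers that do not tell a level from none. Slc25a18, a glutamate carrier, had 0 UMIs in OVA 1, where a 95% Poisson interval allows up to 0.694 CPM, and 3 and 5 UMIs in NP 1 and NP 2. Such intervals cover counting error only. Slc25a31, the germ cell ADP/ATP carrier, was not analysed here, as its symbol is not among those of the table.

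Promoters are printed for both somatic ADP/ATP carriers and for Slc25a10 and Slc25a1, because Slc25a5 and Slc25a10 were higher and Slc25a1 lower in mitotic cells, as described further on. Each is the 250 bases before the RefSeq start of the gene in GRCm38.p6, the assembly behind mm10, read 5′ to 3′ on the strand of the gene. The genes themselves span chrX:36795597-36798808 (Slc25a5), chr8:46207168-46211062 (Slc25a4), chr11:120491837-120501161 (Slc25a10) and chr16:17925211-17928219 (Slc25a1). The window of Slc25a5 lies on the plus strand (chrX:36795347-36795596), Slc25a4 on the minus strand (chr8:46211063-46211312), Slc25a10 on the plus strand (chr11:120491587-120491836) and Slc25a1 on the minus strand (chr16:17928220-17928469). Capitals mark CACGTG, the E-box that Myc can bind, and CCAAT, the box of the factor NF-Y, searched on both strands, so that CCAAT on the other strand reads ATTGG.
Slc25a5: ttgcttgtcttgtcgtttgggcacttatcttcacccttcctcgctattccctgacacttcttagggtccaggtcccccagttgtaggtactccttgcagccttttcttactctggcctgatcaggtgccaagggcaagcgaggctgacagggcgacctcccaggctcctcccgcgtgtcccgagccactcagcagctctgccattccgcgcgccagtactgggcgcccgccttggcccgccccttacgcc
Slc25a4: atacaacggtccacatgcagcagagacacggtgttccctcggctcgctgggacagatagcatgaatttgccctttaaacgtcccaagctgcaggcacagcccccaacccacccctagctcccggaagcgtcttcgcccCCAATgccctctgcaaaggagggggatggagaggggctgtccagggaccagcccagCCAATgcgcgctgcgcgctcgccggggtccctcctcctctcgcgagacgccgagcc
Slc25a10: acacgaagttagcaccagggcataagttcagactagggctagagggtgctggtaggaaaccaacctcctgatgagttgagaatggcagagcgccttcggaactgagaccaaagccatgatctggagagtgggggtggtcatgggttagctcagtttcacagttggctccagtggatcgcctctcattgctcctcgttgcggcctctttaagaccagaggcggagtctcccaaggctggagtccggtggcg
Slc25a1: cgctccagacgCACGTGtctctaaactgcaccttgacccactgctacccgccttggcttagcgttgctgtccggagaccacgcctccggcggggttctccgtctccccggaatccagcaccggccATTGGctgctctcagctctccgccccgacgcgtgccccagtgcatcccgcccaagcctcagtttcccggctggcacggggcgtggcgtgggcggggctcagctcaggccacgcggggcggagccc

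Slc25a1 held a CACGTG that began 239 bases before the start and a CCAAT on the other strand that began 125 bases before it. Slc25a4 held CCAAT at 112 and at 56 bases before the start. Neither motif was in the window of Slc25a5 or of Slc25a10. RefSeq windows were found for 32 of the 42 members. CACGTG was in the windows of 6 of these members (Slc25a1, Slc25a13, Slc25a14, Slc25a15, Slc25a33 and Slc25a36), which is 7 of 41 windows where genes with several starts count more than once, against 6.02% of all 32851 windows of this length. CCAAT was in those of 17 members (20 of 41 windows), against 33.9% of all windows. A match is a match of letters only.

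Across cell states single carriers moved in opposite directions. The summed level of the family was 1934, 2058 and 2250 CPM in Cd83-high noncycling cells, 2047, 2152 and 2473 in Mcm5-positive cells and 2008, 2147 and 2301 in mitotic cells. Both cycling states were above the Cd83-high state in every library, and the ranges of the states overlapped. In the mitotic against Cd83-high noncycling comparison, 3 members rose (Slc25a5, Slc25a10 and Slc25a51) and 4 fell (among them Slc25a1, Slc25a39 and Slc25a22) of the 27 that passed the low-count filter, by edgeR's quasi-likelihood test on sums per library and state with Benjamini-Hochberg adjustment over all genes at 0.05. All log2 folds are given ± SE. The 3 rises and 4 falls make 25.9% of the members tested, against 34.8% of the 8248 genes tested in all (17.6% higher and 17.2% lower). The median log2 fold was -0.03 over the members and -0.02 over all genes. In the Mcm5-positive against Cd83-high noncycling comparison, 4 members rose (Slc25a5, Slc25a10, Slc25a12 and Slc25a4) and 1 fell of 27, or 18.5%, against 28.2% of all genes (14.5% higher and 13.6% lower), with medians of 0.10 and -0.04. In the mitotic against Mcm5-positive comparison, 3 fell (among them Slc25a1 and Slc25a39) and 0 rose, or 11.1%, against 15.6% of all genes (7.47% lower). The edgeR test gave 6 members at an unadjusted p under 0.05 there. DESeq2 called 0 higher. The difference between these shares was not tested, and its direction turned under some alternatives. Without the deepest cells, for example, 3 members rose and 6 fell of 25 in the mitotic against Cd83-high noncycling comparison, against 2692 calls among 8029 genes. The 3 comparisons share the sums of each state, so they are given side by side and are not independent of each other.

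The splits moved with the scaling. Without TMM factors the median log2 fold of all genes moved from -0.02 to 0.08 in the mitotic against Cd83-high noncycling comparison, the share of higher genes among calls from 50.6% to 60.9%, and the members from 3 higher and 4 lower to 5 and 2. In the Mcm5-positive against Cd83-high noncycling comparison it took the median from -0.04 to 0.03, the share from 51.7% to 62.3% and the members from 4 higher and 1 lower to 5 and 1.

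**Figure D2:**
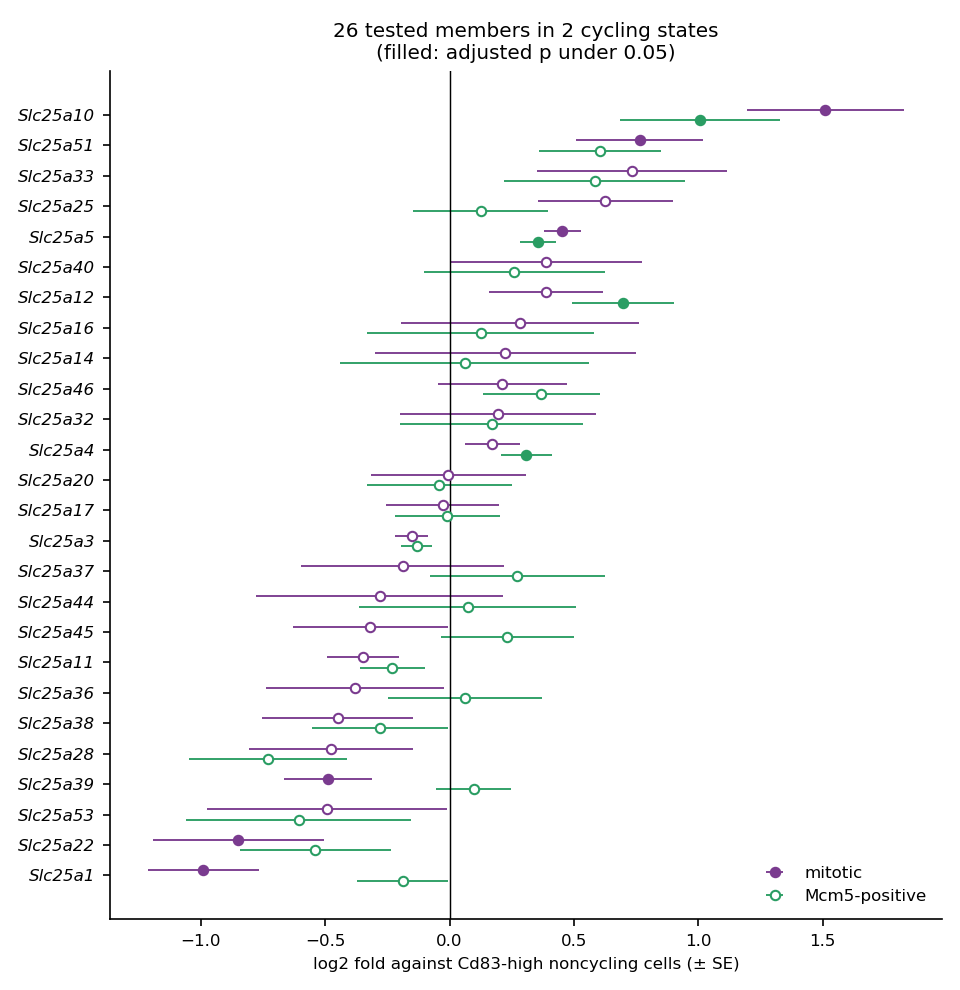
log2 fold (horizontal axis, ± SE) of 26 tested members in mitotic (purple) and Mcm5-positive (green) cells, each against Cd83-high noncycling cells, with filled points where the adjusted p was under 0.05. Slc25a1 lies lowest and Slc25a10 highest, at -0.99 and 1.51 for mitotic cells.

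The group of ADP/ATP and phosphate carriers had 6 members in the table, 4 of them tested. Among them are the carriers that feed ATP synthase and export its product. Slc25a5 stood at 337, 403 and 428 CPM in Cd83-high noncycling cells, 460.4, 558 and 564 in Mcm5-positive cells and 514, 588 and 607 in mitotic cells. Both cycling states were above the Cd83-high state in every library, and neither range overlapped that of the Cd83-high state, while the ranges of the cycling states overlapped each other. The log2 fold was 0.45 ± 0.07 for mitotic cells (adjusted p = 7.25e-07, edgeR) and 0.35 ± 0.07 for Mcm5-positive cells (adjusted p = 6.30e-05). Between mitotic and Mcm5-positive cells it was 0.10 ± 0.06, which did not pass the test (adjusted p = 0.328). RefSeq also lists a pseudogene, Slc25a5-ps, and reads shared with a near-identical copy could not be told apart here.

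Slc25a4 stood at 151, 107 and 188 CPM in Cd83-high noncycling cells, 204, 153 and 229 in Mcm5-positive cells and 202, 137 and 196 in mitotic cells. NP 2 was lowest in each state and the groups overlapped, although Mcm5-positive cells were above Cd83-high cells within each library. Its log2 fold was 0.31 ± 0.10 in Mcm5-positive cells (adjusted p = 0.0158, edgeR), and 0.17 ± 0.11 in mitotic cells, which missed the threshold (adjusted p = 0.236). In mitotic cells it was called higher without TMM factors and without OVA 1. The Mcm5 call was lost in 7 of 14 alternatives, among them DESeq2 (adjusted p = 0.0723), another random draw of the thinned UMIs (log2 fold 0.19, adjusted p = 0.222), a stricter cell filter (adjusted p = 0.0631) and leaving out the deepest cells (adjusted p = 0.0566). It was also lost without NP 1 (log2 fold 0.26, adjusted p = 0.184) and without NP 2 (0.27, adjusted p = 0.0783). With all UMIs of the same cells it was 0.36 ± 0.07, adjusted p = 5.40e-05.

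Slc25a3 stood at 599, 733 and 773 CPM in Cd83-high noncycling cells, 563, 698 and 774 in Mcm5-positive cells and 559, 744 and 729.6 in mitotic cells. The 3 states overlapped, and its log2 folds of -0.15 ± 0.07 and -0.13 ± 0.06 did not pass the test (adjusted p = 0.0658 and 0.115, edgeR). It was called lower in mitotic than in Cd83-high noncycling cells without the deepest cells and with the mitotic threshold at 10% of cells. With all UMIs that log2 fold was -0.04 ± 0.04 (adjusted p = 0.463). Slc25a25 had 23.1, 9.74 and 26.3 CPM in Cd83-high noncycling cells and 24.8, 30.1 and 49.3 in mitotic cells, which overlapped (log2 fold 0.63 ± 0.27, adjusted p = 0.0652). With all UMIs its log2 fold was 0.16. Slc25a25 was called higher in this comparison without TMM factors, with the stricter cell filter and without NP 1. Its relatives Slc25a23 and Slc25a24 were too low to be tested.

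Ratios within these carriers were computed after their levels had been seen and are a description with no test. UMIs of both ADP/ATP carriers together, divided by those of Slc25a3, gave 0.815, 0.697 and 0.797 in Cd83-high noncycling cells, 1.18, 1.02 and 1.03 in Mcm5-positive cells and 1.28, 0.974 and 1.10 in mitotic cells. In each library the phosphate carrier exceeded the ADP/ATP carriers in Cd83-high cells, and the ratio was higher in both cycling states. The ratio of Slc25a5 to Slc25a4 was 2.23, 3.76 and 2.27 in Cd83-high noncycling cells and 2.54, 4.30 and 3.10 in mitotic cells, highest in NP 2 in each state.

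**Figure D3:**
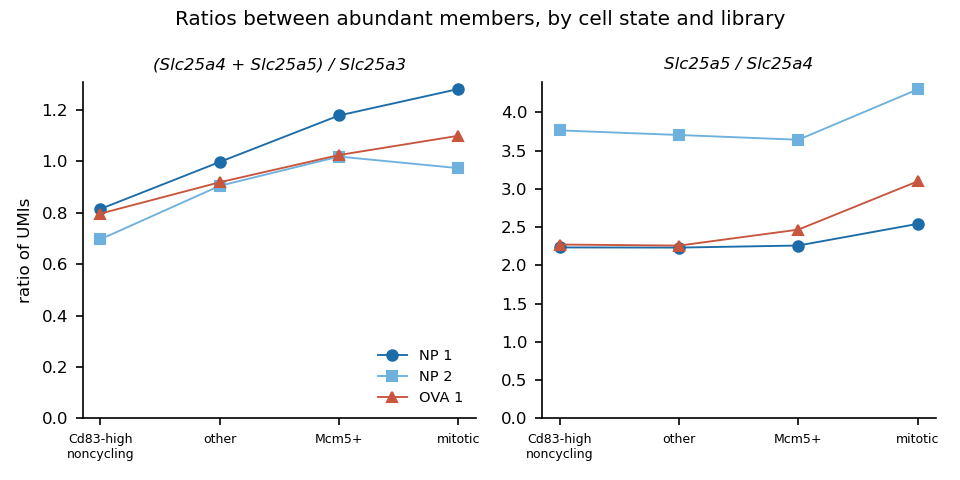
Ratios of summed UMIs (vertical axes) by cell state in NP 1 (circles), NP 2 (squares) and OVA 1 (triangles). The ratio of both ADP/ATP carriers to Slc25a3 lies between 0.697 and 0.815 in Cd83-high noncycling cells and between 0.974 and 1.28 in mitotic cells, and that of Slc25a5 to Slc25a4 is highest in NP 2 in each state.

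Among the nucleotide and cofactor carriers, Slc25a51 had 20.7, 27.3 and 18.003 CPM in Cd83-high noncycling cells, 37.7, 31.2 and 32.7 in Mcm5-positive cells and 41.9, 28.7 and 43.3 in mitotic cells. Neither cycling state overlapped the Cd83-high state. Its log2 fold was 0.76 ± 0.26 in mitotic cells (adjusted p = 0.0143, edgeR) and 0.60 ± 0.24 in Mcm5-positive cells, which missed the threshold (adjusted p = 0.0558). The mitotic call was lost in 6 of 14 alternatives, among them DESeq2 (adjusted p = 0.0759), no NP 1 (log2 fold 0.61, adjusted p = 0.188) and no OVA 1 (0.62, adjusted p = 0.136). With all UMIs both passed, at 0.82 ± 0.15 (adjusted p = 4.07e-05) and 0.65 ± 0.15 (adjusted p = 0.000722). The pyrimidine nucleotide carrier Slc25a33 had 7.30, 15.6 and 9.69 CPM in Cd83-high noncycling cells and 16.2, 28.7 and 12.02 in mitotic cells, a log2 fold of 0.73 ± 0.38 that did not pass (adjusted p = 0.133), while it passed with all UMIs (0.54, adjusted p = 0.0288) and in the other draw of thinned UMIs. Slc25a17, Slc25a36, the other pyrimidine nucleotide carrier, Slc25a32 and Slc25a16 did not pass in these state comparisons. With all UMIs Slc25a17 passed in mitotic against Cd83-high cells (0.29, adjusted p = 0.0427).

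The citrate, dicarboxylate and oxoglutarate carriers split. Slc25a1, whose citrate supplies cytosolic acetyl-CoA for lipid synthesis, had 52.3, 66.3 and 41.5 CPM in Cd83-high noncycling cells, 49.4, 39.7 and 54.2 in Mcm5-positive cells and 31.5, 20.5 and 30.1 in mitotic cells. Mitotic cells were below both of those states in every library with no overlap, and Mcm5-positive and Cd83-high cells overlapped. The log2 fold of mitotic cells was -0.99 ± 0.22 against Cd83-high noncycling cells (adjusted p = 0.000248, edgeR) and -0.80 ± 0.20 against Mcm5-positive cells (adjusted p = 0.00249). Between Mcm5-positive and Cd83-high noncycling cells it was -0.19 ± 0.18 (adjusted p = 0.501). The first call held in all 14 alternatives, with log2 folds from -1.41 to -0.71. Its promoter is the window above that held both motifs, and whether they bear on these levels was not tested.

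Slc25a10, which exchanges malate or succinate for phosphate, moved the other way. It had 3.65, 17.5 and 19.4 CPM in Cd83-high noncycling cells, 30.8, 23.7 and 24.7 in Mcm5-positive cells and 44.8, 31.4 and 37.3 in mitotic cells, and 14.2, 14.5 and 13.98 in other cells. The Cd83-high value of NP 1 rests on 3 UMIs and is the lowest of all. Both cycling states were above the Cd83-high state in every library, without overlap. The log2 folds were 1.51 ± 0.32 in mitotic cells (adjusted p = 7.86e-05, edgeR) and 1.01 ± 0.32 in Mcm5-positive cells (adjusted p = 0.0129). Without NP 1 they were 0.76 (adjusted p = 0.113) and 0.29 (adjusted p = 0.665), and neither passed. Without OVA 1 they were 2.07 and 1.60, and both passed. The Mcm5 call was also lost with DESeq2 (adjusted p = 0.0708) and with the stricter cell filter (adjusted p = 0.118). With all UMIs of the same cells they were 1.46 ± 0.18 (adjusted p = 1.11e-07) and 1.25 ± 0.18 (adjusted p = 1.86e-06).

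Slc25a11, which trades oxoglutarate for malate in the malate-aspartate shuttle, had 85.2, 115 and 105 CPM in Cd83-high noncycling cells, 81.9, 93.7 and 96.5 in Mcm5-positive cells and 86.8, 80.6 and 81.7 in mitotic cells. The states overlapped, and the log2 fold of -0.35 ± 0.14 in mitotic against Cd83-high noncycling cells just missed the threshold (adjusted p = 0.0526, edgeR). It passed in some other settings, the other draw of thinned UMIs among them. With all UMIs it passed too (-0.39 ± 0.09, adjusted p = 0.000665), and so did mitotic against Mcm5-positive cells (-0.25, adjusted p = 0.0124). In RefSeq the gene overlaps Rnf167, and other members overlap annotated genes too, among them Slc25a25 (Naif1), Slc25a12 (the pseudogene Gm13641), Slc25a39 (Mir6930), Slc25a3 (the snoRNA gene Gm24119) and Slc25a16 (Gm25862 and Gm16128). Reads of overlapping genes could be split between them, and whether counting used strand is not given in the sources used here.

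Amino acid carriers had 11 members in the table, of which 5 were tested. Slc25a12, the other arm of the malate-aspartate shuttle, had 30.4, 27.3 and 27.7 CPM in Cd83-high noncycling cells, 42.97, 42.6 and 62.2 in Mcm5-positive cells and 40.99, 34.2 and 43.3 in mitotic cells. Mcm5-positive cells were above Cd83-high cells in every library with no overlap (log2 fold 0.70 ± 0.20, adjusted p = 0.00645, edgeR). Without OVA 1, the library with the highest Mcm5-positive level, it was 0.52 (adjusted p = 0.157). The call was also lost in another draw of the thinned UMIs (0.49, adjusted p = 0.0758) and with DESeq2 (0.71, adjusted p = 0.0528). In mitotic cells the log2 fold was 0.39 ± 0.23 and did not pass (adjusted p = 0.197). Slc25a13, its paralog, did not pass the low-count filter. With all UMIs it was higher in Mcm5-positive than in Cd83-high noncycling cells (0.81, adjusted p = 0.00825), as was Slc25a15, the ornithine carrier of the urea cycle (1.18, adjusted p = 0.0138). Slc25a13 was called there in the other draw of thinned UMIs too, and was called lower in mitotic than in Mcm5-positive cells without NP 1 and without NP 2.

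Slc25a22, a glutamate carrier, had 24.3, 9.74 and 22.2 CPM in Cd83-high noncycling cells, 13.9, 7.57 and 19.9 in Mcm5-positive cells and 9.53, 4.10 and 20.4 in mitotic cells. NP 2 was lowest in each state, and the groups overlapped, although mitotic cells were below Cd83-high cells within each library. The log2 fold was -0.85 ± 0.35 (adjusted p = 0.0486, edgeR), and the call was lost in 8 of 14 alternatives, DESeq2 among them (adjusted p = 0.144). It was -0.48 without NP 1 (adjusted p = 0.512) and -0.79 without NP 2 (adjusted p = 0.105), and -1.35 without OVA 1 (adjusted p = 0.0265). With all UMIs it was -0.87 ± 0.19 (adjusted p = 0.000403). Slc25a38, which supplies glycine for heme synthesis, had 26.8, 15.6 and 24.9 CPM in Cd83-high noncycling cells and 17.4, 16.1 and 27.1 in Mcm5-positive cells. It passed with all UMIs in Mcm5-positive against Cd83-high noncycling cells (-0.49, adjusted p = 0.00922). Slc25a44, a carrier of branched-chain amino acids, and Slc25a45 were tested and did not pass, although Slc25a45 was called lower in mitotic than in Cd83-high noncycling cells in the other draw.

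All 4 iron and glutathione carriers were tested. Slc25a39 had 73.01, 68.2 and 62.3 CPM in Cd83-high noncycling cells, 64.4, 75.7 and 93.3 in Mcm5-positive cells and 39.1, 60.1 and 60.1 in mitotic cells. Mitotic cells were below both of those states in every library with no overlap, and the NP 1 value was the lowest. The log2 fold of mitotic cells was -0.49 ± 0.18 against Cd83-high noncycling cells (adjusted p = 0.0257, edgeR) and -0.58 ± 0.15 against Mcm5-positive cells (adjusted p = 0.00371). Against Cd83-high cells the call was lost in 7 of 14 alternatives, among them DESeq2 (adjusted p = 0.106). It was lost without NP 1 (-0.23, adjusted p = 0.513), with all UMIs (-0.17, adjusted p = 0.138) and in another random draw of the thinned UMIs (-0.04, adjusted p = 0.894). Against Mcm5-positive cells it was lost with DESeq2 (adjusted p = 0.0552) and in the other draw (-0.16, adjusted p = 0.531) and passed with all UMIs (-0.32 ± 0.08, adjusted p = 0.00206). Its paralog Slc25a40 and both iron importers, Slc25a37 (mitoferrin 1) and Slc25a28 (mitoferrin 2), did not pass, with log2 folds in mitotic against Cd83-high noncycling cells of 0.39 ± 0.38, -0.19 ± 0.41 and -0.48 ± 0.33.

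**Figure D4:**
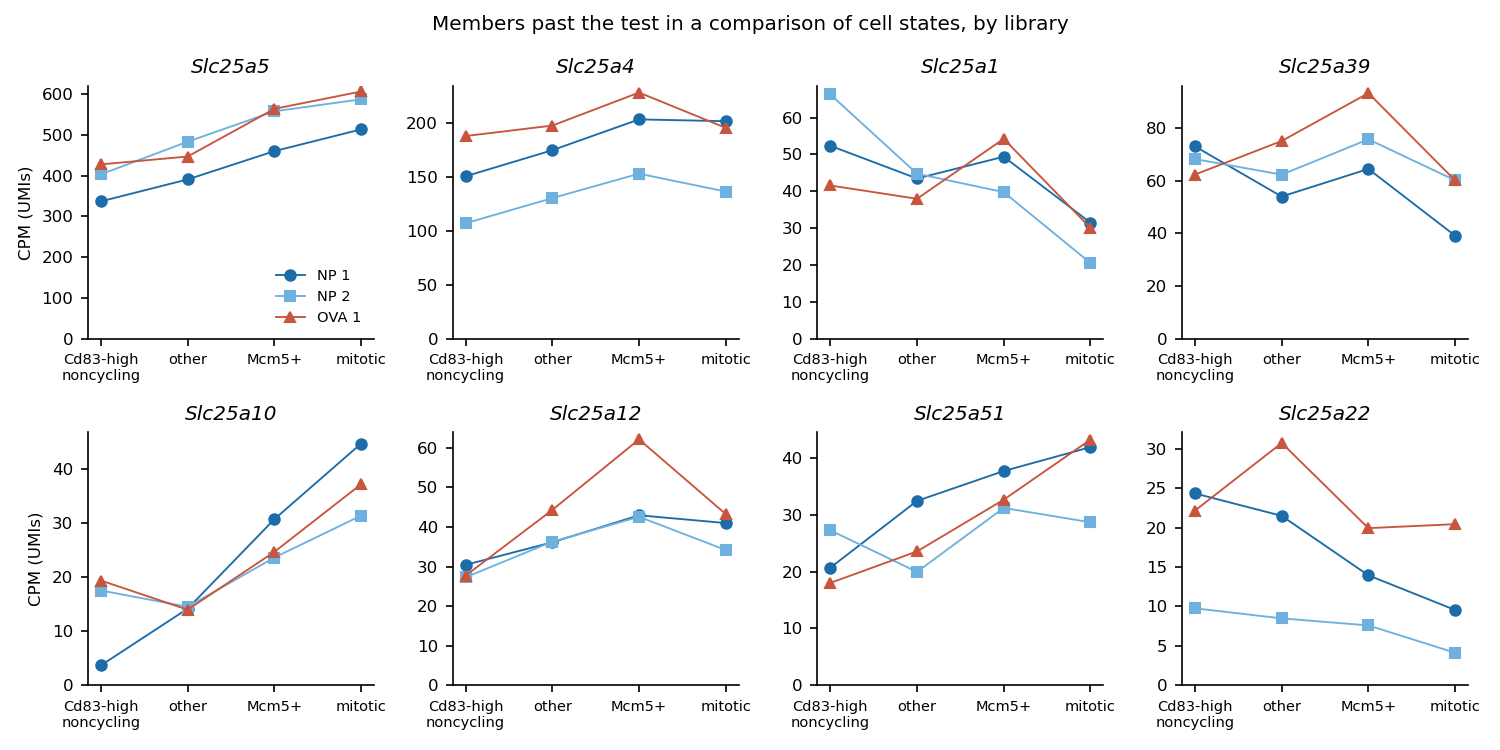
Levels in CPM (vertical axes, from 0) of 8 members that passed the test in a state comparison, in the 4 cell states, for NP 1 (circles), NP 2 (squares) and OVA 1 (triangles). Slc25a5 lies between 337 and 428 CPM in Cd83-high noncycling cells and between 514 and 607 in mitotic cells, while Slc25a1 is lowest in mitotic cells in each library.

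Slc25a20, the carnitine and acylcarnitine carrier, had 24.3, 9.74 and 23.5 CPM in Cd83-high noncycling cells and 24.8, 25.97 and 14.4 in mitotic cells. These overlapped, with a log2 fold of -0.005 ± 0.31 (adjusted p = 0.994, edgeR). Of the carriers that resemble uncoupling proteins only Slc25a14 was tested (0.22 ± 0.53), and Slc25a30 and Slc25a27 were too low. Slc25a46 (0.21 ± 0.26) and Slc25a53 (-0.49 ± 0.48), a member of no assigned substrate here, did not pass either. Without OVA 1, Slc25a46 was called higher in Mcm5-positive than in Cd83-high noncycling cells. Whether these differences between states themselves differed between NP and OVA libraries was tested as an interaction. It called 0 of 27 members for both cycling states by edgeR, with 1 member at an unadjusted p under 0.05 in each. Of 8248 genes in all it called 1 for mitotic and 0 for Mcm5-positive cells. With 1 OVA library it cannot show that the differences were alike in both groups.

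Myc-positive cells held at least 1 Myc UMI after thinning (145, 104 and 190 cells). They were 7.81%, 13.9% and 16.04% of Cd83-high noncycling cells, 9.20%, 7.71% and 9.65% of Mcm5-positive cells and 3.77%, 4.39% and 8.01% of mitotic cells. No cell type that lacks Myc was measured beside them, so the share due to free RNA is not known. The 4 light zone markers, Cd83 among them, summed to 2299, 1735 and 2180.00 CPM in Myc-positive cells and 931, 751 and 1022 in Myc-negative cells. Memory or naive B cell markers summed to 412, 311 and 653 against 224, 256 and 369.7, germinal center markers to 1637, 1844 and 1408 against 2219.7, 1979 and 1817, and myeloid markers to 0, 3.89 and 40.5 against 33.6, 779.6 and 1670.1. The part of these markers in the results was not tested. The family's summed level was 2202, 2249 and 2391 CPM in Myc-positive cells and 1966, 2067 and 2248 in Myc-negative cells, higher in each library but overlapping between groups. DESeq2 called 0 of the 31 members tested and 47 of 8806 genes in all. By edgeR none of the 31 members passed either (0 called, 2 at an unadjusted p under 0.05), and 1.68% of 8806 genes were called in all. The median log2 fold was 0.10 over the members and -0.02 over all genes.

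Slc25a10 had 30.6, 23.3 and 36.3 CPM in Myc-positive and 22.7, 20.3 and 19.4 in Myc-negative cells, without overlap (0.58 ± 0.29, adjusted p = 0.473), and its direction turned in another draw of the thinned UMIs. Slc25a5 had 562, 549 and 469 in Myc-positive and 417, 509.97 and 499.99 in Myc-negative cells. It was higher in both NP libraries and lower in OVA 1 (0.14 ± 0.09, adjusted p = 0.682). Slc25a1 had 66.8, 38.9 and 46.9 in Myc-positive and 42.8, 41.9 and 40.5 in Myc-negative cells, again mixed between libraries (0.30 ± 0.23, adjusted p = 0.738).

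**Figure D5:**
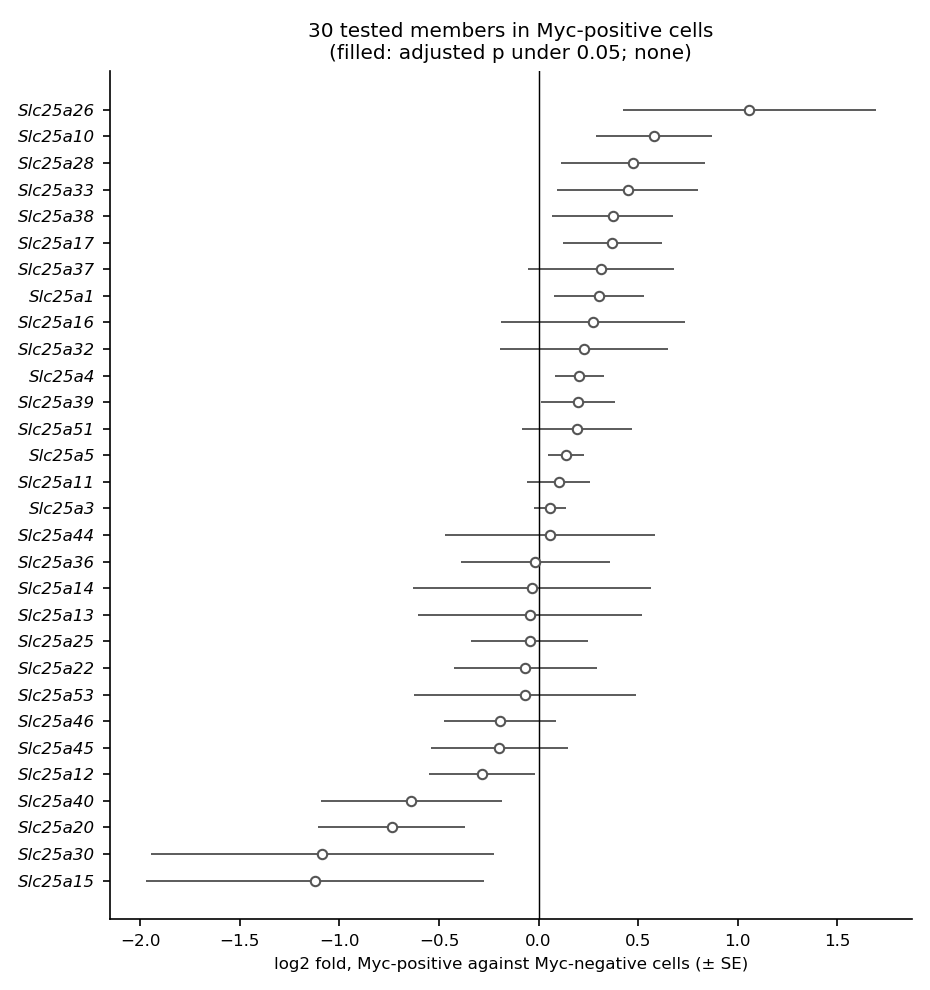
log2 fold (horizontal axis, ± SE) of 30 tested members in Myc-positive against Myc-negative cells, ordered by fold. No point is filled, since no adjusted p was under 0.05, and the widest errors belong to members with few UMIs.

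Restricted to Cd83-high noncycling cells, the Myc comparison rested on 26, 29 and 47 Myc-positive cells. Only 8 members could be tested and edgeR called 0 (0 at an unadjusted p under 0.05), against 1.64% of 3850 genes. DESeq2 called 0 members and 8 of the 3850 genes. Slc25a4 had 171, 153 and 224 CPM in Myc-positive and 149, 99.7 and 181 in Myc-negative cells of this state, higher in each library (0.30 ± 0.26, adjusted p = 0.728). With all UMIs of the same cells its log2 fold had the other sign (-0.26 ± 0.17, adjusted p = 0.479). Slc25a3 had 637, 669.6 and 803 against 595, 743 and 767 and was mixed. At this depth log2 folds had standard errors of 0.15 to 0.56.

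Between libraries, 0 of 34 tested members passed in the comparison of the pair of NP libraries with OVA 1 by edgeR (1 at an unadjusted p under 0.05) and 0 by DESeq2, where 0.201% of 10461 genes were called. The test has 1 residual degree of freedom. OVA 1 was above both NP libraries for 17 of the 42 members and below both for 9. Among the 21 expressed members these numbers were 10 and 4. The same order was not counted over all genes, so these numbers have no share to stand beside and nothing is read from them. Slc25a22 was the member at an unadjusted p under 0.05, with 17.5, 7.58 and 25.4 CPM (-0.97 ± 0.37 for NP against OVA, adjusted p = 0.514). NP 1 and NP 2 themselves lay far apart for this gene, and their 95% Poisson intervals of 14.2 to 21.2 and 5.12 to 10.8 CPM did not overlap. Slc25a4 was low in NP 2 (185, 135 and 204), and Slc25a3 was low in NP 1 (569, 703 and 733), so that the lowest library was not the same for these carriers.

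Other genes that work beside the family were read from lists. Of 5 mitochondrial carriers with other symbols, 3 were in the table. Ucp2, an uncoupling protein well known from immune cells, stood above any Slc25a member at 1387, 1629 and 1415 CPM, with a log2 fold of 0.001 ± 0.06 in mitotic against Cd83-high noncycling cells (adjusted p = 0.991, edgeR). Mtch2, a carrier homolog of the outer membrane, rose in mitotic (0.52 ± 0.13, adjusted p = 0.000974) and Mcm5-positive cells (0.34 ± 0.13, adjusted p = 0.0357). Mtch1 rose in Mcm5-positive cells (0.60 ± 0.15, adjusted p = 0.00159). With all UMIs Mtch1 passed in mitotic cells too (0.52, adjusted p = 0.000268), as did Vdac2 of the next group (0.25, adjusted p = 0.000304). The outer membrane channels, through which the substrates of these carriers pass, rose in 2 of 3 cases in mitotic cells (Vdac1 0.50 ± 0.14 and Vdac3 0.52 ± 0.11) and in 3 of 3 in Mcm5-positive cells. Of all 8248 genes tested, 17.6% were higher in mitotic and 14.5% in Mcm5-positive cells, each against Cd83-high noncycling cells. With 3 genes in the list, the difference between these shares was not tested. Vdac3, for example, had 169, 150.1 and 149.6 CPM in Cd83-high noncycling cells and 233, 272 and 243 in Mcm5-positive cells.

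Of 9 tested inner membrane transporters of other families, Sfxn1, a serine transporter, rose in Mcm5-positive against Cd83-high noncycling cells (0.53 ± 0.13, adjusted p = 0.00111, edgeR) and was lower in mitotic than in Mcm5-positive cells (-0.53 ± 0.12, adjusted p = 0.000755). Sfxn3 was lower in mitotic than in Cd83-high noncycling cells (-2.24 ± 0.62, adjusted p = 0.0028), at levels under 20 CPM. None of the 10 genes that import and insert carrier proteins passed against Cd83-high noncycling cells in either cycling state (edgeR, 1 and 2 at an unadjusted p under 0.05). With all UMIs 3 of them passed in mitotic cells, Timm13 (0.24) and Timm8b (0.40) higher and Timm10 (-0.33) lower, and 3 were higher in Mcm5-positive cells, Timm13 (0.29), Timm8a1 (0.43) and Timm8b (0.32). Of 10076 genes in all, 4809 and 3946 were called in these comparisons with all UMIs. In Myc-positive cells 1 of these 10 import genes rose, against 1.68% of 8806 genes called in all. It was Timm10, a chaperone of the intermembrane space that escorts carriers to the inner membrane. For the genes of these lists, all UMIs is the only alternative setting given here. Timm10 had 69.6, 42.8 and 44.8 CPM in Myc-positive and 26.4, 33.5 and 27.9 in Myc-negative cells, without overlap (0.86 ± 0.24, adjusted p = 0.0456). With all UMIs Timm8a1 (0.70, adjusted p = 0.000269) and Timm9 (0.60, adjusted p = 0.0007) passed beside Timm10 (0.83, adjusted p = 0.000123), and all 3 also passed within Cd83-high noncycling cells. All UMIs gave 634 calls among 10366 genes for Myc and 301 among 6822 within that state. After thinning, 0 of the 7 import genes tested within that state passed (edgeR, 0 at an unadjusted p under 0.05). Their log2 folds there ran from -0.71 to 0.75.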

How the data were processed

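Mouse splenic germinal center B cells of 3 single-cell 5′ libraries were analysed (NP 1, NP 2 and OVA 1), and the immunoglobulin libraries of the series were not used here. Per the submitters' processing notes, the authors used Cell Ranger and genome build mm10. Versions, annotation and filters are not stated there. The deposited table gives raw UMI counts of genes in cells, as whole numbers, for 8873 cells and 14407 genes. The members and the lists of other genes were chosen with earlier results of these data known, and tests describe them without being independent of those results.

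Cells with at least 500 genes, at most 10% mitochondrial UMIs and at least 2500 UMIs were thinned to 2500 UMIs with a fixed seed. No doublet caller was run. Leaving out the 306 deepest cells (5% of each library) was an alternative. The mitotic threshold of 6 UMIs is the smallest number that at most 20% of cells reach. The 225 immunoglobulin genes and the genes that define a state were left out of all tests. Counts were summed per library and state, since cells are not replicates, and tested with edgeR 4.0.16 (R 4.3.3; glmQLFit, glmQLFTest, TMM, filterByExpr, Benjamini-Hochberg over all genes, threshold 0.05). The state fit had 12 sums of 4 states in 3 libraries, and the Myc fits had 6 sums each, all with library as a block because the sums of a library come from the same droplets. NP against OVA had 3 sums. Standard errors were taken from the fold and the F statistic (fold over root F). As another test DESeq2 1.42.0 was run. The scripts were tested on simulated data with set log2 folds and a set spread. Of log2 folds of 1 in size, 59.0% were called for mitotic against Cd83-high noncycling cells. For Myc it was 57.0%, and for Myc within Cd83-high noncycling cells 51.0%. Of log2 folds of 0.5, 15.0%, 6.0% and 12.0% were called in the same order. A member that did not pass may therefore still differ. Tables and figures used Python 3.11.15, numpy 2.4.6, pandas 2.3.3, scipy 1.17.1 and matplotlib 3.10.9.

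Named in the text are the 12 most abundant members, every member past the test in a comparison, Slc25a4 and Slc25a31 as paralogs of Slc25a5, and members at 0. A member is not reported here by name and is left out of the figures, while the counts include it. Others are named as examples of their substrate group and were chosen after their values were seen. RefSeq entries of GRCm38.p6 matched all 42 symbols, and gene positions and promoter windows come from them.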

Additional observations from a re-analysis of the deposited data

How the results depend on the processing

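Of 207 recomputed values of members that passed the test, over 13 or 14 alternatives each, 164 stayed past it, 43 did not, and 0 changed direction. The cause was not tested for any of these changes. In the mitotic against Cd83-high noncycling comparison (3 members higher, 4 lower), 5 were higher and 2 lower without TMM factors, 5 were higher with all UMIs, 2 were lower with DESeq2, and 2 were lower without the low-count filter. In the same order 2944 of 8248, 4809 of 10076, 2120 of 8248 and 2852 of 13819 genes were called in all. In the Mcm5-positive against Cd83-high noncycling comparison (4 higher, 1 lower), 1 was higher with DESeq2, 7 were higher and 2 lower with all UMIs, and 2 were higher with the stricter cell filter of 1000 genes and 5% mitochondrial UMIs. These settings called 1463 of 8248, 3946 of 10076 and 1632 of 7355 genes in all. The members tested were 27, 32 and 24. In the mitotic against Mcm5-positive comparison (0 higher, 3 lower), 6 were lower with all UMIs, where 2730 of 10076 genes were called. With all UMIs 1 of 33 members was called for Myc, against 0 after thinning. That setting called 634 of 10366 genes for Myc in all. Leaving out a library gave 2 to 4 higher members in Mcm5-positive against Cd83-high noncycling cells, 2 without NP 1, and 0 to 1 higher in mitotic against Mcm5-positive cells, the 1 being Slc25a25 without NP 1. Without NP 1, 1569 and 858 of 7947 genes were called in these comparisons.

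Without the replicate block, the pairing of sums by library, 1 member was higher and 2 lower in mitotic against Cd83-high noncycling cells, 1 higher in Mcm5-positive against Cd83-high noncycling cells, and 0 lower in mitotic against Mcm5-positive cells. Slc25a5 lost its calls only there (adjusted p = 0.0659 and 0.191, edgeR).

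Slc25a28 reversed in Mcm5-positive against Cd83-high noncycling cells in another draw of thinned UMIs (0.252), Slc25a25 in mitotic against Mcm5-positive cells with all UMIs (-0.017) and in the other draw (-0.04), and Slc25a10 in Myc-positive cells in the other draw (-0.413). None of these had passed the test.

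Over all genes, calls in mitotic against Cd83-high noncycling cells (2868) ranged from 1663 without the block to 4809 with all UMIs. For Mcm5-positive against Cd83-high noncycling cells (2323) they ranged from 945 to 3946 under the same settings, with 1463 by DESeq2. For mitotic against Mcm5-positive cells (1284) they ranged from 236 to 2730, with 605 by DESeq2 and 797 with the stricter filter. For Myc (148) there were 6 without the block, 19 without OVA 1, 47 by DESeq2, 64 without NP 1, 84 with the stricter filter and 634 with all UMIs. For Myc within Cd83-high noncycling cells (63) there were 2 without NP 2, 7 without the block, 8 by DESeq2, 13 without NP 1, 26 with the stricter filter or at least 3 Cd83 UMIs, and 301 with all UMIs. The share of higher genes moved there from 68.3% to 89.1% without TMM factors. For NP against OVA (21) there were 8 with the stricter filter, 13 by DESeq2, 57 without TMM factors, 113 without the deepest cells, 125 in the other draw, 129 with all UMIs and 142 without the low-count filter. Leaving out an NP library there leaves 1 library a group, which gives a fold and no test. Depth limits members with means under 10 CPM most, which had at most 9 UMIs in the Cd83-high noncycling cells of a library.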
